A study of Mus musculus with 101 samples.

Results

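The Snrpn and Magel2 domain is an imprinted stretch of mouse chromosome 7, and 2 of the 868 captured regions of the study lie in it. They were taken by position, as the regions between 59 and 63 Mb of chromosome 7: the Snrpn region, which the panel lists in its imprinting category, and the Magel2 region, which it lists in its Cancer category. The table of single CpGs, which holds 7917 sites, has 11 CpGs inside the Snrpn region and 0 inside the Magel2 region. The study measured DNA methylation by enzymatic conversion and targeted capture (EM-seq) in naive embryonic stem cell lines from Diversity Outbred mice, a stock bred to mix the genomes of several founder strains. All lines grew in serum and LIF with 2i, the pair of inhibitors of MEK and GSK3 that holds mouse cells in the naive state and lowers their DNA methylation. The files hold 85 lines, whose names begin with B1 (28 lines), B2 (18), B3A (20) or B3B (19); the labels do not say what these prefixes mean, and give no genotype, sex or passage. The comparison between prefixes asks how much lines of such sets differ. The names mark further classes as well, 16 lines with a second title that ends in WA and 31 columns with a final N, and results that move with these classes are given beside them. Methylation levels are given here in percent and differences in percentage points. Each line has 1 column of values and the read depth behind a value is unknown. The p-values therefore measure the spread between columns, in which differences between lines and measurement error cannot be told apart. The B1 columns B37 and B37N are counted as 2 lines throughout, though they may not be separate.

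In this domain the copy inherited from the mother is methylated at the Snrpn control region and the copy from the father is bare, and the genes read from the paternal copy include Snrpn, Snurf, Magel2, Ndn, Mkrn3 and Peg12. Snrpn encodes a core protein of the spliceosome, Snurf a small protein from the same transcript, and Snhg14 is the long noncoding host transcript whose far end runs antisense to Ube3a, a ubiquitin ligase gene read from the maternal copy in neurons. Magel2 is an intronless gene for a MAGE family protein that works with a ubiquitin ligase in endosomal protein recycling, and its human counterpart lies in the Prader-Willi interval. The Snrpn region receives its methylation in the oocyte and a textbook somatic cell shows it near 50% over both copies. Zinc finger protein ZFP57 protects such imprints when the embryo loses its other methylation. The analysis listed 18 genes of the domain and of the chromosome 7 stretch beside it, from Tubgcp5 to Atp10a. Of these 18, 4 have a captured region, and Snrpn, Snurf and Snhg14 share 1 region. Ndn, Mkrn3, Peg12 and Ube3a have none and were not analysed here.

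The Snrpn region is chr7:60004339-60005334 (mm10), 996 bases long. In the RefSeq annotation of GRCm38.p6, the assembly that mm10 names, it overlaps Snrpn, Snurf and Snhg14, and it runs from 135 bases before to 860 bases after the shared start of Snurf and Snrpn at base 60005199 on the minus strand. The Magel2 region is chr7:62377557-62378056, 500 bases long, and lies 578 to 1077 bases after the start of Magel2 on the plus strand, also overlapping the predicted gene Gm32061. The annotation used gives gene bounds without exons, so exon and UTR positions are not given. The regions are 2372223 bases apart. The promoters are shown because the start of Snrpn lies within its measured region while the start of Magel2 lies outside its own. Both are RefSeq sequences of GRCm38.p6, 250 bases before to 50 bases after the start, with CpGs in capitals.
Snurf and Snrpn promoter, chr7:60005150-60005449, minus strand: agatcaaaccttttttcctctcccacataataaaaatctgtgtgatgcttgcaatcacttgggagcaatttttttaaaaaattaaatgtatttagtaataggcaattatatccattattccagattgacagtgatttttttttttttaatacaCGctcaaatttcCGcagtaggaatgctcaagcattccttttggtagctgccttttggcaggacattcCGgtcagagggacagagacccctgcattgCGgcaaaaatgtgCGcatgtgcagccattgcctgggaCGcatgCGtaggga
Magel2 promoter, chr7:62376729-62377028, plus strand: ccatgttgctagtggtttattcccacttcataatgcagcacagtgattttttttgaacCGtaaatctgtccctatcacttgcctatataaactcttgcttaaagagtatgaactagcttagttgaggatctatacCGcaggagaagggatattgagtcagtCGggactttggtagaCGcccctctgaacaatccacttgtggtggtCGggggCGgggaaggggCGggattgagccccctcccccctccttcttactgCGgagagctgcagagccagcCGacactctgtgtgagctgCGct
The Snurf and Snrpn window holds 7 CpGs, the median over 32817 RefSeq promoters, and all 7 fall in the 185 bases that belong to the captured region. The Magel2 window holds 10 CpGs and ends 529 bases before its captured region. On either strand, the letters TGCCGC, the core of the ZFP57 motif, occur 1 time in the Snurf and Snrpn window and not in the Magel2 window, and occur in 11.6% of all these promoters. The letters CGCATGCG, the centre of sites of the transcription factor NRF1, occur 1 time at the end of the Snurf and Snrpn window, and in 1.86% of all promoters. Among 8 annotated promoters of Snrpn, Magel2, Ndn, Mkrn3 and Peg12, 5 hold CGCATGCG, namely all 4 starts of Snrpn and the promoter of Ndn. None of the 11 CpGs with single values falls in the printed window, since the first lies 299 bases after the start. Magel2 has region values without any such CpG, so a region value can include CpGs that are not listed singly.

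Methylation at Snrpn was mostly below 50%. It was 2.03% in the lowest line, 26.6% in the median line and 53.4% in the highest, with a mean of 27.3% ± 12.2 (SD, n = 85). In 37 of 85 lines (43.5%) Snrpn was under 25%, in 7 of these under 10%, and in 2 lines it was over 50%. No line was over 75%. Lines with little methylation at Snrpn were common and no line exceeded 53.4%. Among the other 22 imprinting regions kept, the level in the highest line ran from 44.6% to 84.4%. The lowest lines were B3B line 19 at 2.03%, B3B line 20N at 2.33% and B3A line 36 at 2.49%. The highest were B1 lines B43N at 53.4% and B44 at 51.7%.

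Magel2 spanned a wider range of levels than Snrpn. It was 1.56% in the lowest line, 28.9% in the median line and 80.1% in the highest, with a mean of 30.7% ± 19.3 (SD, n = 83); 1 B1 line and 1 B3B line have no value. In 36 of 83 lines (43.4%) Magel2 was under 25%, in 14 of these under 10%, and in 17 lines it was over 50%. The highest lines were B1 lines C17 at 80.1% and A5 at 68.5% and B3B line 8 at 68.3%. The lowest were B3A lines 20N at 1.56% and 29N at 2.59% and B1 line B29 at 3.98%.

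**Figure D1:**
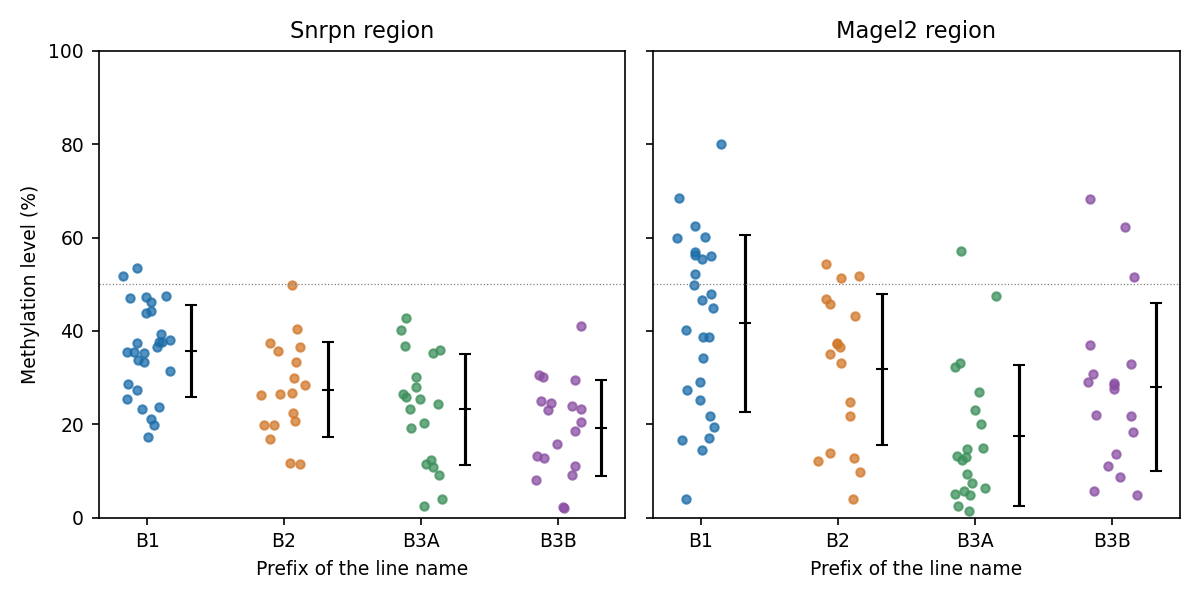
Methylation level in percent of the Snrpn region (left) and the Magel2 region (right), 1 point per line, by prefix of the line name; black bars give mean and SD, and the dotted line marks 50%. Snrpn tops out at 53.4% while 17 Magel2 values lie over 50%.

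Snrpn was highest in B1 and lowest in B3B. Among B1 lines the lowest, median and highest levels were 17.3%, 36.1% and 53.4%, and among B2 lines 11.5%, 26.6% and 49.95%. Among B3A lines they were 2.49%, 24.9% and 42.8%, and among B3B lines 2.03%, 20.6% and 41.1%. The ranges of all 4 prefixes overlapped. B1 lines averaged 35.7% ± 9.83 (SD, n = 28), B2 lines 27.5% ± 10.2 (n = 18), B3A lines 23.2% ± 11.9 (n = 20) and B3B lines 19.2% ± 10.3 (n = 19). Snrpn was under 25% in 5 of 28 B1 lines, 7 of 18 B2 lines, 10 of 20 B3A lines and 15 of 19 B3B lines. The difference between prefixes passed limma's F test over all regions on the log2 odds scale (Benjamini-Hochberg adjusted p = 0.000193).

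Magel2 was highest in B1 too, but lowest in B3A. Its lowest, median and highest lines were 3.98%, 44.8% and 80.1% among B1 lines and 4.05%, 35.8% and 54.4% among B2 lines. Among B3A lines they were 1.56%, 13.1% and 57.1%, and among B3B lines 4.89%, 28.1% and 68.3%. Again all 4 ranges overlapped. B1 lines averaged 41.6% ± 18.99 (SD, n = 27), B2 lines 31.8% ± 16.1 (n = 18), B3A lines 17.6% ± 15.1 (n = 20) and B3B lines 27.97% ± 18.03 (n = 18). Magel2 exceeded 50% in 10 B1 lines, 3 B2 lines, 1 B3A line and 3 B3B lines. This difference between prefixes also passed (limma, adjusted p = 0.000298). Both regions passing is close to what the table as a whole gives, since 81.6% of the 787 regions kept (those measured in at least 80% of the lines) passed the same test.

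Of 12 differences between pairs of prefixes, 6 per gene, 7 passed a two-sided permutation test adjusted over the 12. The share of all regions that would pass these pairwise tests was not computed. Since 81.6% of the 787 regions kept passed the F test over prefixes, the count is not read as particular to these genes. Snrpn was higher in B1 than in B2 by 8.24 points (adjusted p = 0.0224), than in B3A by 12.5 points (0.00112) and than in B3B by 16.5 points (0.00012), and higher in B2 than in B3B by 8.28 points (0.0357). Magel2 was higher in B1 than in B3A by 24.1 points (0.00024) and than in B3B by 13.7 points (0.0357), and higher in B2 than in B3A by 14.2 points (0.0224). Neighbours in the order that did not differ beyond their spread were B2 and B3A (4.25 points, 0.29) and B3A and B3B (4.03 points, 0.29) for Snrpn. For Magel2 they were B1 and B2 (9.84 points, 0.104), B2 and B3B (3.83 points, 0.505) and B3A and B3B (-10.4 points, B3A minus B3B, 0.0928). Many columns of the B3A and B3B lines have names with a final N that most titles lack, 16 of 20 in B3A and 9 of 19 in B3B, against 6 of 28 in B1 and 0 of 18 in B2. In columns without it, 3 of the 12 differences passed, and Snrpn in B3A minus B3B was -6.70 points (adjusted p = 0.343) with 4 B3A lines left.

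Overall methylation also varied with prefix, in the same order of means as Magel2 and not in that of Snrpn. The library mean, the average of the 785 other regions kept, averaged 24.4% over B1 lines, 20.7% over B2 lines, 12.8% over B3A lines and 15.8% over B3B lines. The library mean and Magel2 were both lowest in B3A, whereas Snrpn was lowest in B3B. With the library mean as a covariate, the adjusted p of the prefix difference was 0.0804 at Snrpn and 0.280 at Magel2 (limma), and 3.43% of the 787 regions passed. In limma this covariate was the mean of all regions kept, Snrpn and Magel2 included, on the scale of the test. The call at Snrpn depended on the setting: it passed on the percent scale (adjusted p = 0.0435) and in lines with 1 title (0.0251). In columns without a final N its adjusted p was 0.524. A permutation F test of the 2 regions alone gave p = 0.00514 at Snrpn. That p is not adjusted over the 787 regions, and the unadjusted p of the limma F test was similar, 0.00589. Relative to the line fitted on the library mean, Snrpn lay 3.61 points above it in B1 lines and 1.28 points above it in B3A lines on average. Snrpn lay at -1.36 points in B2 and at -5.38 points in B3B on the same scale. For Magel2 these averages were 1.37 points (B1), -1.63 (B2), -2.76 (B3A) and 2.65 (B3B).

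Across lines Magel2 followed the library mean more steeply than Snrpn did. The fitted slope was 1.66 points of Magel2 and 0.872 points of Snrpn per point of library mean. The difference, Magel2 minus Snrpn, correlated with the library mean at r = 0.557 (rho = 0.492, n = 83, permutation p = 1e-05 and 2e-05, adjusted 1.38e-05 and 2.57e-05), and at 0.480 without the 2 lines of most distant library mean. By prefix this r was 0.834 (B1), 0.469 (B2), 0.0902 (B3A) and 0.626 (B3B), so the difference followed the library mean least among B3A lines. Slopes were not fitted by prefix, and whether this r differs between prefixes was not tested. Pearson's r with the library mean was 0.873 for Magel2 (Spearman's rho = 0.858, n = 83) and 0.718 for Snrpn (rho = 0.762, n = 85), each with a permutation p of 1e-05, the smallest that 100000 resamples can give (adjusted 1.38e-05 over the 18 tests of 9 relations). Leaving out the 2 lines with the library mean farthest from its median, r was 0.854 for Magel2 and 0.745 for Snrpn. The r of Magel2 within a prefix was 0.906 (B1), 0.851 (B2), 0.751 (B3A) and 0.824 (B3B). The r of Snrpn within a prefix was 0.432 (B1), 0.789 (B2), 0.861 (B3A) and 0.721 (B3B).

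**Figure D2:**
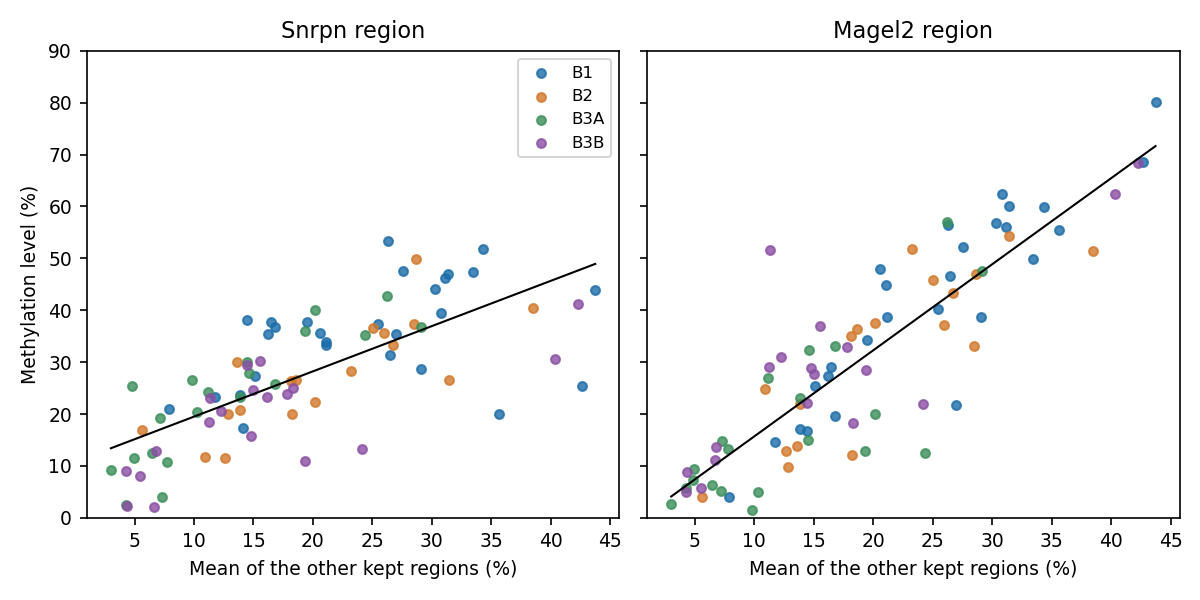
Methylation level in percent of the Snrpn (left) and Magel2 (right) regions against the mean of the other 785 kept regions, 1 point per line, coloured by prefix, with the least squares line. The Magel2 line is steeper, 1.66 points per point against 0.872 for Snrpn.

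Magel2 and Snrpn correlated over the lines, and their correlation over all lines did not pass once the library mean was regressed out. Pearson's r between Magel2 and Snrpn was 0.666 (rho = 0.670, n = 83, permutation p = 1e-05, adjusted 1.38e-05), and 0.644 once the 2 lines with Snrpn farthest from its median were left out. Taken by prefix, r was 0.514 (B1), 0.662 (B2), 0.583 (B3A) and 0.798 (B3B). Once the library mean was regressed out of both, r was 0.118 and rho 0.115 (permutation p = 0.289 and 0.298, adjusted 0.335). Taken by prefix, that r was 0.255 (B1), -0.0303 (B2), -0.235 (B3A) and 0.548 (B3B), and the values by prefix were not tested. With Snrpn recomputed from its CpGs and the library mean regressed out, r over all lines was 0.209 (permutation p = 0.0585). In 25 of 83 lines both genes were under 25%, and in 37 neither was. In 10 lines Magel2 alone was at or above 25%, and in 11 Snrpn alone was.

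Single lines separated the genes widely. B1 line A5 had 68.5% at Magel2 and 25.4% at Snrpn, a difference of 43.1 points, and B1 line C17 had 80.1% and 43.8%. At the other end, B3A line 20N had 1.56% at Magel2 and 26.5% at Snrpn, -24.98 points. Magel2 was the higher gene in 51 of 83 lines. The mean difference, Magel2 minus Snrpn, was 3.24 ± 14.4 points (SD, n = 83; sign-flip permutation p = 0.0429, adjusted 0.0429 over 4 comparisons within lines). On the log2 odds scale, which the limma tests use, the mean difference was 0.103 and did not pass (p = 0.446).

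That difference itself varied with prefix. Magel2 minus Snrpn averaged 5.25 points over B1 lines (Magel2 higher in 17 of 27), 4.33 over B2 lines (12 of 18), -5.65 over B3A lines (8 of 20) and 9.001 over B3B lines (14 of 18), with F = 4.14 and a permutation p of 0.00898. Adjusted over the 6 pairs, B3A was lower than B1 (B1 minus B3A 10.9 points, p = 0.037), than B2 (9.98 points, p = 0.037) and than B3B (B3A minus B3B -14.6 points, p = 0.00516). After regression on the library mean F was 4.58 (p = 0.00535). In columns with a final N, present in 3 prefixes, the difference was 1.14 points for B1, -6.16 for B3A and 9.49 for B3B (F = 3.80, permutation p = 0.0348). In columns without it the difference was 6.42 points for B1, 4.33 for B2, -3.60 for the 4 B3A lines and 8.52 for B3B (F = 0.781, p = 0.512).

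A class of lines set by the titles stood apart on the same measure. For 16 lines the labels hold a second title that ends in WA, and the 1 column of such a line cannot be assigned to either title. Magel2 minus Snrpn was positive in 16 of these 16 lines, 2.40 to 36.3 points, and in 35 of the other 67. The means were 14.5 ± 9.47 points (SD, n = 16) and 0.550 ± 14.1 points (n = 67), a difference of 13.9 points (permutation p = 0.00033, adjusted 0.0033 over 10 tests of column classes chosen after their values were seen). Magel2 averaged 43.9% in the lines with a second title and 27.6% in the others (adjusted p = 0.0103), while Snrpn averaged 29.4% and 26.9% (adjusted p = 0.509). The difference, Magel2 minus Snrpn, was larger in the lines with a second title in each prefix: 17.5 against 2.47 points in B1, 15.7 against 1.07 points in B2, 7.67 against -8.98 points in B3A and 16.9 against 7.42 points in B3B. The library mean was 23.9% and 17.8% (adjusted p = 0.0757), and with it regressed out the difference was 9.22 points (adjusted p = 0.017). Without the 16 lines the mean difference of 0.550 points did not pass (sign-flip permutation p = 0.754), and it averages prefixes whose means have opposite signs. The part of the second titles in the result was not tested.

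**Figure D3:**
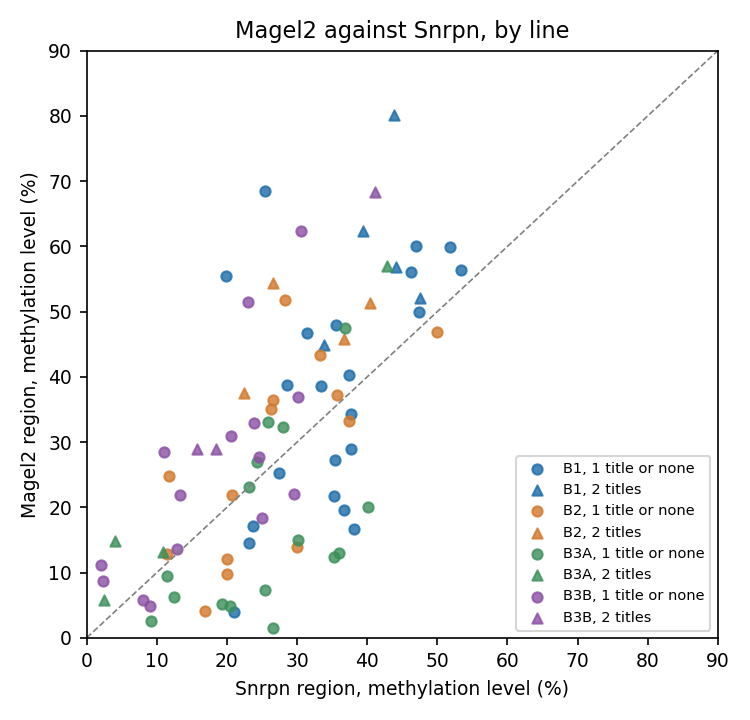
Magel2 against Snrpn methylation level in percent, 1 point per line, coloured by prefix; triangles are the 16 lines with a second title, and the dashed line marks equal levels. All 16 triangles lie above the dashed line, against 35 of 67 circles.

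Both regions were more methylated than the average of their own category. Magel2 exceeded the mean of the other 138 Cancer regions kept in 65 of 83 lines, by 9.77 ± 11.03 points (SD), and that category mean was 20.9%. Snrpn exceeded the mean of the other 22 imprinting regions in 66 of 85 lines, by 4.43 ± 6.77 points, and that category mean was 22.9%. Magel2 exceeded the same 22 imprinting regions by 7.69 ± 12.002 points in 61 of 83 lines, though in B3A the difference was -0.231 points. Each of these 3 differences had a sign-flip permutation p of 1e-05, the smallest possible (adjusted 1.33e-05). By mean level Snrpn ranked 5 of 23 in the imprinting category, where the other means ran from 15.2% to 38.2%. By spread between lines it ranked 19 of 23. Its correlation with the library mean ranked 22 of 23. Magel2 ranked 46 of 139 Cancer regions by mean and 83 of 139 by correlation with the library mean.

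Most of the regions whose levels followed Snrpn closest over the lines were in the imprinting category. Likeness was Pearson's r on the log2 odds scale over all lines with both values. The regions most like Snrpn were Peg3 (0.892), Gnas (0.883), Mest (0.877), Igf2r (0.870) and Nnat (0.862), against a median of 0.616 over 785 regions. With the library mean regressed out they were Peg3 (0.767), Gnas (0.746), Mest (0.731) and Igf2r (0.726), then a Gnas region that the panel lists in its Cancer category (0.708), and the median was -0.0310. Peg3 and Mest are maternally methylated imprinted genes, Igf2r encodes a receptor that clears insulin-like growth factor 2, and Gnas a G protein subunit. The regions most like Magel2 were Nxf2 (0.883), Pax6 (0.877), Frmd4a (0.875), Camkk1 (0.873) and Capn9 (0.872), against a median of 0.757. Given the library mean its closest were Usp26 (0.409), Nkx2-1 (0.379), Tmem255b (0.343), Pou2f2 (0.314) and Arel1 (0.296), against a median of -0.0114. On the percent scale, 3 of the 5 regions named for Snrpn and 2 of the 5 named for Magel2 were again among the closest 5, and 4 and 3 of 5 given the library mean. Of the 20 regions most like Snrpn, 16 were in the imprinting category, both before and after the library mean was regressed out. The imprinting category makes up 22 of the 785 regions compared. Of the 20 most like Magel2, 0 were in it by either measure. That is close to its share in the table as a whole and sets Magel2 apart from no other region. Given the library mean Magel2 ranked 326 of 786 in likeness to Snrpn (r = 0.0149).

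Snrpn also followed the average of the other imprinting regions. With the library mean regressed out, Snrpn correlated with the mean of the other 22 imprinting regions at r = 0.687 (rho = 0.674, permutation p = 1e-05, adjusted 1.38e-05), and at 0.639 without the 2 farthest lines. Taken by prefix, r was 0.734 (B1), 0.443 (B2), 0.705 (B3A) and 0.667 (B3B). For Magel2 and the same 22 regions r was -0.0232 (rho = 0.0487, permutation p = 0.833 and 0.659), and by prefix it was 0.243 (B1), -0.0123 (B2), -0.278 (B3A) and 0.236 (B3B). Without that regression r was 0.797 for Magel2 and 0.849 for Snrpn. The difference between these coefficients was not tested.

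Within the Snrpn region the 11 CpGs, 299 to 597 bases after the start, had similar levels. Their means ran from 22.01% to 33.01%. The CpG at 329 bases was the highest at 33.01% ± 12.4 (SD, n = 85) and the one at 549 bases the lowest at 22.01% ± 13.3. The 3 CpGs nearest the start had means of 28.2% to 33.01% and the 2 farthest 22.01% to 22.7%, and Spearman's rho of mean with distance was -0.682 over the 11, given as a description since neighbouring CpGs share reads. Pairs of CpGs correlated over lines at r = 0.490 to 0.950, with a median of 0.736 over 55 pairs. Within a line the SD between the 11 CpGs had a median of 6.67 points, and 25 of 935 values were 0. The average of the 11 followed the deposited region value at r = 0.938.

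B1 had the highest mean at 10 of the 11 CpGs, all but the one at 448 bases where B2 was higher, and B3B had the lowest at all 11. At 549 bases B1 lines averaged 32.2%, B2 lines 21.04%, B3A lines 18.1% and B3B lines 12.1% (limma, adjusted p = 0.000299). At 597 bases they were 34.1%, 19.1%, 18.7% and 13.8% in the same prefixes (adjusted p = 0.000530). The difference between prefixes passed limma's F test at 9 of 11 CpGs, where 45.2% of all 7917 CpGs passed, and missed it at 486 bases (adjusted p = 0.0546) and 448 bases (0.150). The 11 sites lie in 1 region and are not independent. With the library mean as a covariate 0 of 11 passed in limma, where 0.177% of all CpGs passed. The smallest adjusted p of the 11 was 0.0563, at 549 bases.

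**Figure D4:**
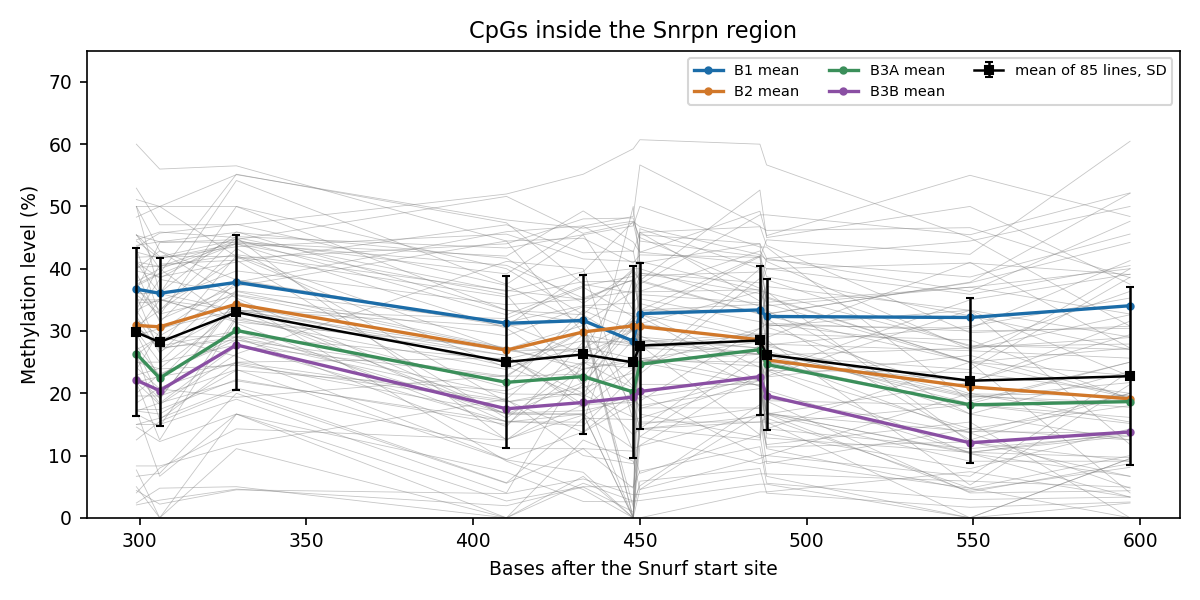
Methylation level in percent of the 11 CpGs in the Snrpn region against bases after the Snurf start site. Grey lines are single lines, black squares the mean of 85 lines with SD, and coloured points the prefix means; B3B is lowest at all 11 CpGs.

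The CpG at 448 bases differed from its neighbour 2 bases further on in a few lines. In B1 line B37 it was 0% where the CpG at 450 bases was 35.2%, in B1 line B37N it was 0% against 45.5%, in B3A line 33N 0% against 29.03%, and in B1 line B33 1.79% against 39.3%. The other 10 CpGs of these lines averaged 26.3% to 36.98%, so the rest of the region was methylated. In 0 lines was 450 at or under 5% and 448 at or over 20%, and the similar pair that begins at 486 bases had 0 such lines in either direction. The 2 CpGs at 448 and 450 correlated at r = 0.759 over 85 lines and at 0.888 without these 4, against 0.897 for the pair at 486. Of 659 pairs of CpGs 2 bases apart in the whole table, 582 had no such line and 14 had at least 4. Such a line needs 1 CpG at 20% or more, which held in 9313 of 56015 combinations of pair and line. Of those 9313, 1.66% differed in this way, against 6.35% of the 63 lines that qualify at 448 and 450 bases. B37 and B37N have names that differ by a final N and may not be separate lines. The limits of 5% and 20% were chosen after the values were seen, and neither the DNA sequence of these lines nor the reads were analysed here.

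**Figure D5:**
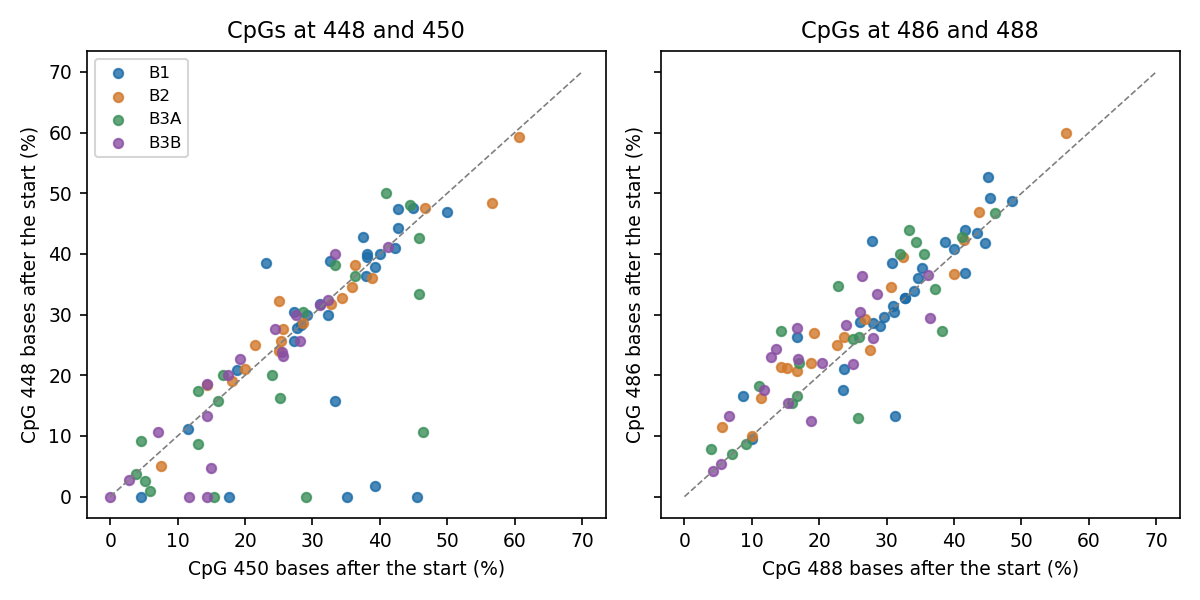
Methylation level in percent of CpGs 2 bases apart in the Snrpn region, at 448 against 450 bases after the start (left) and at 486 bases against the next CpG (right), 1 point per line, coloured by prefix; the dashed line marks equal levels. Of the 85 lines, 4 lie at 0% to 1.79% at 448 bases with 29.03% to 45.5% at 450 bases.

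The label of naive cells could be set beside methylation only. Regions at 4 pluripotency genes (Nanog, Zfp42, Tbx3 and Dppa3) had means of 0.191% to 6.26%, and regions at 4 genes of other cell types (Sox17, Gata4, Foxa2 and Pax6) had means of 3.47% to 56.7%. The top value was that of Pax6, and the next highest was Gata4 at 13.9%. The lists overlapped, with Sox17 at 5.03% below Dppa3 at 6.26%. Expression, which would define the cell type, was not analysed here.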

How the data were processed

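Targeted EM-seq was read from 85 columns of lines, for 101 titles. The reads were handled with Bismark, Bowtie2 and Trim Galore 0.6.4 on mm10, per the submitters' processing notes, which are held here without order or settings. The authors deposited methylation fractions per region and per CpG; the table names point to a coverage filter at 10, and coverage itself is not given, so depth is unknown and no counting interval can be had. Of the columns, 44 match 1 title; 41 were placed by prefix alone (16 lines with 2 titles, 24 columns whose final N the title lacks, 1 with no title). No columns were identical.

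Fractions were multiplied into percent. Regions measured in 80% of the lines or more (787 of 868) entered limma 3.58.1 (R 4.3.3), an F test over prefixes on log2((f + 0.01)/(1 - f + 0.01)), adjusted by Benjamini-Hochberg over all regions or all CpGs. The fit was run on simulated data in which regions varied independently. The regions here vary together, so that run cannot show how many calls here are false. Single comparisons used permutation tests with 100000 resamples (SciPy 1.17.1, NumPy 2.4.6), two-sided except the F tests. The genes named for likeness are the 5 regions with the highest r to each member, before and after regression on the library mean. Members, lists and tests were chosen with earlier results of these data known. The 5 relations with imprinting regions or with the difference, the 2-title tests and the comparison of adjacent CpGs were chosen after seeing the data. Alternatives were another offset, the percent scale, other filters, columns without a final N, lines with 1 title, and region values recomputed from CpGs. The list of genes of the domain and the stretch beside it holds 18 genes, all found in RefSeq.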

Additional observations from a re-analysis of the deposited data

Results flagged for a closer look

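Magel2 minus Snrpn differed between prefixes by a test of the difference itself (F = 4.14, permutation p = 0.00898): -5.65 points in B3A against 5.25 in B1, 4.33 in B2 and 9.001 in B3B. Groups of more than 10 lines were not searched for outlying lines.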

How the results depend on the processing

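Of 80 alternative values of the main results, 72 kept their direction and their side of the threshold. Magel2 minus Snrpn within a line lost its call on the log2 odds scale (0.103, p = 0.446) and in lines with 1 title (0.550 points, p = 0.754); its difference between prefixes lost it in columns without a final N (F = 0.781, p = 0.512). The prefix difference at Snrpn given the library mean gained a call on the percent scale (adjusted p = 0.0435) and in lines with 1 title (0.0251). It had adjusted p = 0.524 in columns without a final N. It also gained a call in a permutation F test of the 2 regions alone (0.00514), but that p is not adjusted over all regions, and the unadjusted limma p was 0.00589. With the library mean as a covariate, 0 of 11 CpGs passed in place of 9. In columns without a final N, 3 pairwise differences passed in place of 7, and Snrpn in B3A minus B3B turned to -6.70 points. There also 1801 CpGs passed over the whole table in place of 3576, and with the covariate 3 regions in place of 27; in lines with 1 title 41 did. The causes were not tested. Comparisons of regions within a line were paired. Lines could not be paired between prefixes, because replicate numbers were given in accession order and the columns carry none. Recomputing region values from CpGs could not be run for Magel2, which has none; 2 alternatives with Snrpn recomputed were added after seeing the data. With 18 to 28 lines per prefix, single lines were not left out in turn. Depth is unknown, so how far counting error limits a value cannot be given.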
